A study of Mus musculus with 20 samples.

Results

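Transcripts of 10 genes of the NF-kappaB system were followed in mouse keratinocytes: the 5 subunit genes Nfkb1, Nfkb2, Rel, Rela and Relb, and the 5 feedback genes Nfkbia, Nfkbiz, Tnfaip3, Bcl3 and Birc3. They were taken by symbol from a table of raw read counts for 25719 genes in 20 mice. All 10 were in the table, and all 10 were among the 12424 genes that passed the filter on low counts. The conditional knockout mice (cKO) carried Cyp11b1 L2/L2, a floxed gene for the enzyme that completes corticosterone synthesis, together with K14-CreERTam, a tamoxifen-dependent Cre recombinase under the keratin 14 promoter. Control mice were littermates with the same floxed alleles and no Cre, and they received tamoxifen as well. Tamoxifen was given on 5 days, either on the skin in ethanol (topical, 20 µl on the ear and 100 µl on the shaved back) or into the peritoneum in oil and ethanol (systemic, 100 µl at 10 mg/ml), and cells were taken on day 6. Genotype and route gave 4 groups, with 5 mice in each: cKO and control after topical, and cKO and control after systemic tamoxifen. Route, vehicle and shaving come together in this design, so a difference between routes is a difference between these procedures as a whole. Each library was made from RNA of 2 M keratinocytes sorted from ear and dorsal skin. Mice are named here by group and by the number in the sample title, and the labels give no age.

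NF-kappaB is a family of dimeric transcription factors that most cells hold in the cytoplasm, bound to inhibitor proteins. Cytokine receptors, Toll-like receptors and related sensors activate kinases that have the inhibitor destroyed, and the freed dimers enter the nucleus and bind kappa B sites in DNA. Several of the genes they switch on encode brakes of the pathway itself, so that the response is self-limiting. In the epidermis the pathway drives chemokine and cytokine genes in response to injury and infection, and glucocorticoids, whose local synthesis the deletion is meant to remove, are known to restrain it. Single cells were not resolved in these bulk libraries, so fewer cells of a type and less RNA per cell cannot be told apart.

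RefSeq promoter windows, from 250 bases before to 50 bases after each transcription start on GRCm38.p6, were at hand for 7 of the 10 genes in 10 windows. Nfkb1, Relb and Nfkbiz had no entry. Windows were searched on both strands for a pair of kappa B letter patterns of the classical type, which can overlap each other in 1 site. The patterns were written from general knowledge of kappa B sites and do not come from the deposited files, and what they match is seen in the capitals. At least 1 match was found for Nfkbia, Tnfaip3, Rel, Nfkb2 and Bcl3, that is, for 5 of 7 member genes and in 8 of 10 member windows (80%). An Nfkb2 site was counted in 2 overlapping windows, so the windows are not independent. Of all 32851 windows in the same table, 6.80% held a match, and of 27025 genes 7.69% had one. The sequences below are shown because they hold matches of 3 feedback genes (Nfkbia, Tnfaip3 and Bcl3) and of the subunit genes Rel and Nfkb2. They are written 5′ to 3′ on the strand of the gene, with matches in capitals, and positions are counted from the start, with -1 as the base before it. For Nfkbia, Rel and the more upstream of the Tnfaip3 starts, the 120 bases before the start are given. They lie at chr12:55492648-55492767, chr11:23770970-23771089 and chr10:19015411-19015530, all on the minus strand.
Nfkbia: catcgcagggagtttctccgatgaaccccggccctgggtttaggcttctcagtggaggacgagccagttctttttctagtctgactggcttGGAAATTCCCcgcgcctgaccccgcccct
Rel: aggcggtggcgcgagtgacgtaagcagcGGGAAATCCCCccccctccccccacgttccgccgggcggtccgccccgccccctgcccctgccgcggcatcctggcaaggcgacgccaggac
Tnfaip3: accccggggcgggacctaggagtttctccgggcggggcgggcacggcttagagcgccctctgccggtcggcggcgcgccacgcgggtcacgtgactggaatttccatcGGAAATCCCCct
For Nfkb2 and Bcl3 only the sites with a few flanking bases are shown. The Nfkb2 sites shown lie before its first start, at chr19:46304693-46304713 and chr19:46304721-46304736 on the plus strand. GENCODE vM21 also places the first exon of a longer Nfkb2 transcript there. The Bcl3 stretch, at chr7:19822739-19822758 on the minus strand, crosses the start, and its match lies wholly after it.
Nfkb2 distal: gtcacGGGAATTCCCCccctc
Nfkb2 proximal: cgaaaGGGGCTTTCCC
Bcl3: ggcagGGGAAGTCCCgctgc
The Nfkbia match spans -29 to -20 and the Rel matches together span -92 to -82. Tnfaip3 has a match from -12 to -3 of the start shown, within an intron of a longer GENCODE transcript, a match from 34 to 43 after the same start, and a match from -90 to -81 of its other start. Nfkb2 has matches from -39 to -29 and from -11 to -1 of its first start. The window of its second start has matches from -236 to -227 and from 11 to 20. That of its last start has a match from -225 to -216, which is the same site as the match from 11 to 20. The Bcl3 match is downstream of the start, from 3 to 12. These patterns were not found in the windows of Rela and Birc3.

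**Figure D1:**
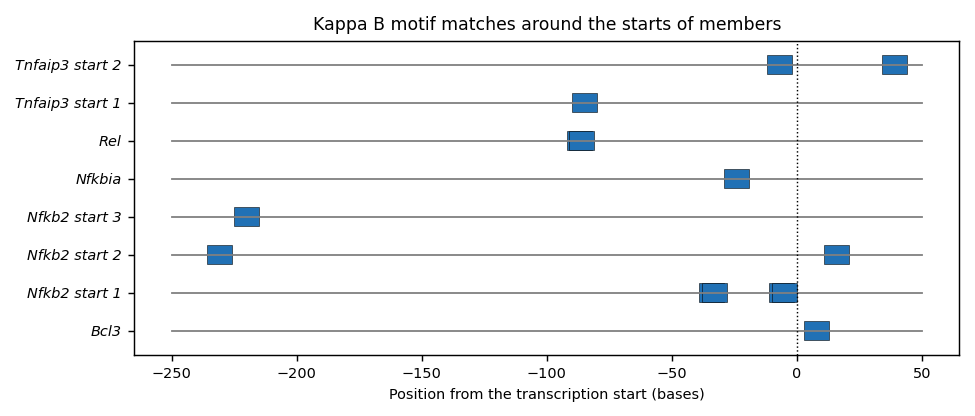
Matches to the kappa B letter patterns (boxes) in the promoter windows of members that hold one; the horizontal axis is the position in bases from the RefSeq transcription start, and each line is 1 window of 300 bases. Each window of Nfkbia, Rel and Tnfaip3 and that of the first Nfkb2 start holds a match within 100 bases before the start; matches after the start are seen in Bcl3, in 1 window of Tnfaip3 and in 1 of Nfkb2.

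Library totals ran from 11.6 to 50.1 M counts. Sex was set from Y-linked transcripts, summed to over 5 CPM in males. Males were topical cKO 2 and 5, systemic cKO 4 and 6, topical controls 1, 5 and 6, and systemic controls 1, 3 and 6. Both sexes were in every group, in unequal numbers between genotypes. Cyp11b1 itself had at most 6 counts in any library, cKO or control, so its level does not check the genotype labels. Keratinocyte markers (8 genes) summed to between 70769 and 104922 CPM, whereas 12 immune markers summed to between 9.81 and 40.0 CPM, with Ptprc, the pan-leukocyte marker, at 0.147 CPM or less. CPM is the count scaled to the library total with trimmed-mean (TMM) factors. The sums over marker, satellite-like, Y-linked and dissociation genes, and the Ptprc value, use library totals without these factors. Satellite-like transcripts, summed over 12 predicted genes, were at 79.4 to 11674 CPM in the 5 systemic controls and at 37287 CPM in systemic cKO 2, and at 42.5 CPM or less in the 14 other libraries. In controls this split is the same as the split by route, so the effects of these splits cannot be told apart there.

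The feedback genes Nfkbia, Tnfaip3 and Nfkbiz were the most abundant members, the 5 subunits lay between 25.8 and 83.8 CPM, and the feedback genes Birc3 and Bcl3 were the lowest. Nfkbia (ENSMUSG00000021025, chr12:55489410-55492647), which encodes the inhibitor that holds dimers in the cytoplasm, was at a mean of 4482 CPM over the 20 libraries and ranked 38th of the 12424 genes tested. Tnfaip3 (ENSMUSG00000019850, chr10:19000910-19015657), an enzyme that edits ubiquitin chains and shuts off signalling, was at 790.5 CPM. Nfkbiz (ENSMUSG00000035356, chr16:55811375-55838899), a nuclear inhibitor-like cofactor that helps selected target genes, was at 429 CPM. Among subunits, Rela (ENSMUSG00000024927, chr19:5637483-5648130), the main activating subunit, was highest at 83.8 CPM. Nfkb2 (ENSMUSG00000025225, chr19:46304320-46312385), whose precursor serves the non-canonical pathway, was at 40.3 CPM, and Rel (ENSMUSG00000020275, chr11:23736847-23770970) was at 39.5 CPM. Relb (ENSMUSG00000002983, chr7:19606217-19629438), the partner of the processed Nfkb2 product, was at 26.6 CPM. Nfkb1 (ENSMUSG00000028163, chr3:135584655-135691547), which gives the classical partner of Rela, was at 25.8 CPM. Birc3 (ENSMUSG00000032000, chr9:7848699-7873186), a ubiquitin ligase at the tumor necrosis factor receptor, was at 15.7 CPM, and Bcl3 (ENSMUSG00000053175, chr7:19808462-19822770), a nuclear coactivator of the Nfkb1 and Nfkb2 homodimers, was lowest at 4.19 CPM. Gene positions are those of GENCODE vM21 on GRCm38. The lowest count behind any of these values was 29, for Bcl3, and the highest was 166616, for Nfkbia.

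Levels of different genes are compared per kilobase of annotated exon. On that scale Nfkbia was at 2784 ± 1085 CPM per kb (SD, n = 20), above all other members in 20 of 20 libraries. Tnfaip3 followed at 109 ± 55.0 and Nfkbiz at 85.5 ± 39.1 CPM per kb, and their order held in 15 of 20 libraries only. Rela came next at 27.3 ± 5.69 CPM per kb, below Nfkbiz and above Nfkb2 in all 20. The order from there was Nfkb2 (8.78 ± 2.13), Relb (6.84 ± 1.5), Rel (5.29 ± 2.17), Birc3 (3.14 ± 0.683), Nfkb1 (2.14 ± 0.863) and Bcl3 (1.69 ± 0.795 CPM per kb). Neighbours in this lower part overlapped: Nfkb2 exceeded Relb in 17 libraries, Relb exceeded Rel in 14, Rel exceeded Birc3 in 18, Birc3 exceeded Nfkb1 in 18 and Nfkb1 exceeded Bcl3 in 16. Per kilobase, Nfkbia was 54.9 ± 17.7 times the sum of the 5 subunits (SD, n = 20), with a range from 22.2 to 87.0. That ratio was 52.4 ± 16 in topical cKO, 50.7 ± 13.5 in topical control, 64.8 ± 15.7 in systemic cKO and 51.9 ± 25.2 in systemic control (SD, n = 5 each). The ranges of the groups overlapped. Nfkb1, Nfkb2 and Bcl3 overlap other annotated genes, so reads from those neighbours could be part of their counts. For Nfkb1 the neighbour is Gm43430, on the same strand. For Nfkb2 they include Psd, and for Bcl3 they are a pair of antisense genes, all on the opposite strand. Whether the counting used strand is not given in the sources used here.

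**Figure D2:**
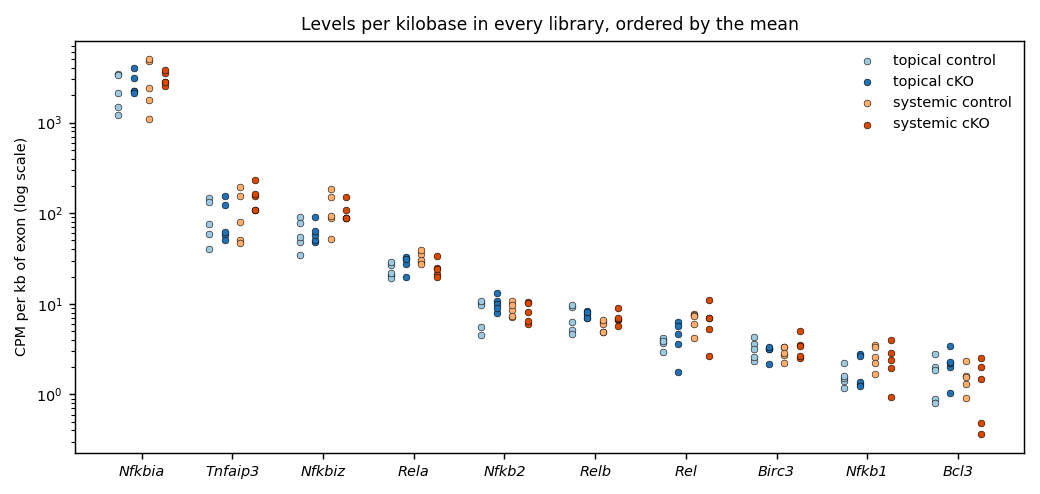
CPM per kilobase of exon (vertical log axis) of each member in each of the 20 libraries, ordered by the mean and coloured by group. Nfkbia stands above all other members in every library, and the 6 lowest members overlap with their neighbours.

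Several members varied widely between mice of the same group. The pooled within-group SD of log2(CPM + 1) was 0.73 for Tnfaip3, 0.63 for Nfkbia, 0.62 for Bcl3, 0.54 for Rel, 0.53 for Nfkb1 and 0.51 for Nfkbiz. Those 6 values lay between the 93.3rd and the 98.5th percentile of the 12424 genes, whose median was 0.28. Rela (0.26), Relb (0.29) and Birc3 (0.30) were close to that median, with Nfkb2 at 0.37. Over all libraries the highest value exceeded the lowest 9.25-fold for Bcl3, 6.09-fold for Rel, 5.72-fold for Tnfaip3 and 5.37-fold for Nfkbiz. The steadiest member was Rela, at 2.00-fold. Spread of this size within groups sets how large a difference between groups had to be to pass the test.

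**Figure D3:**
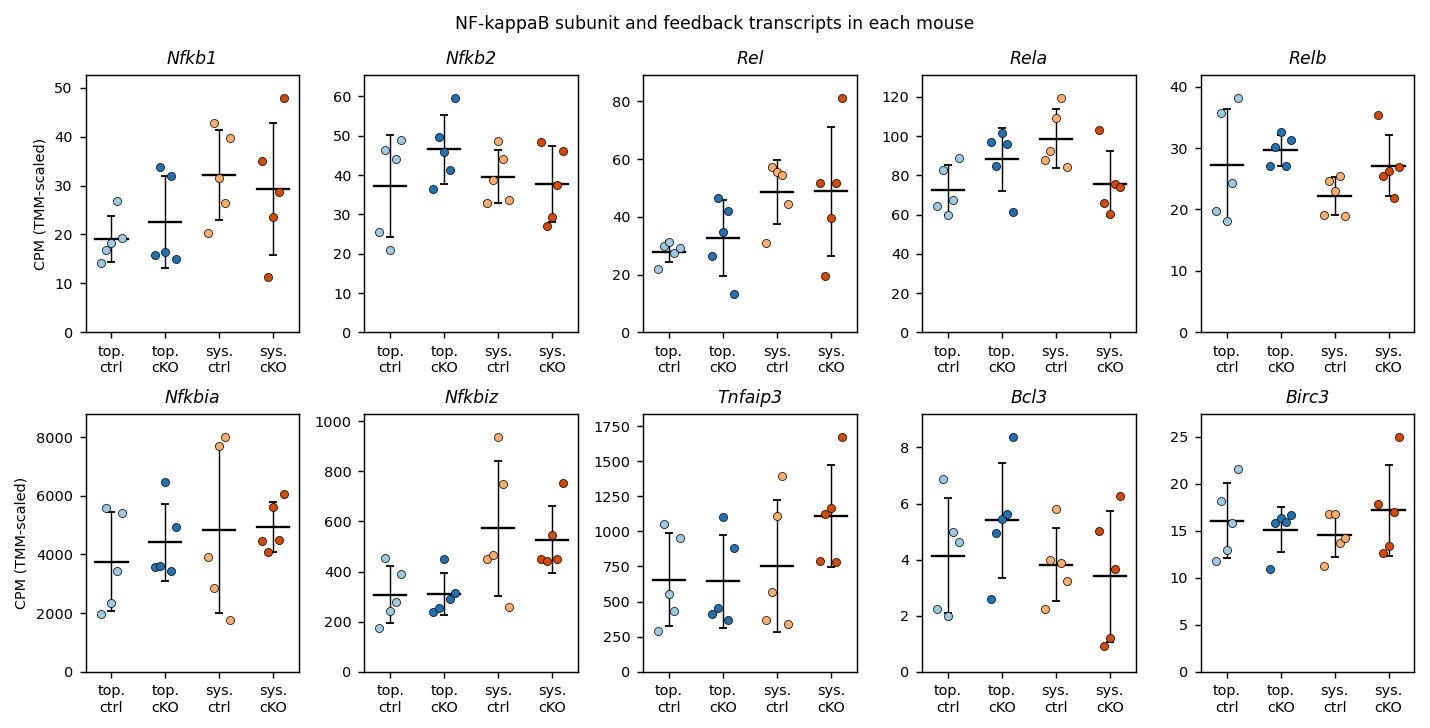
CPM of each member (vertical axes, starting at 0) in each of the 5 mice per group, with the group mean (thick line) and SD (thin bar); top. is topical, sys. systemic and ctrl control. For Nfkbia in systemic controls the mice run from 1746 to 7993 CPM, and in no panel are 2 groups of the same route or of the same genotype fully apart.

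The first comparison asks what loss of Cyp11b1 in keratinocytes does to these transcripts when it is induced on the skin. Of the 10 members, 0 were called between topical cKO and topical control by edgeR's quasi-likelihood test with Benjamini-Hochberg adjustment over all genes (adjusted p under 0.05), beside 0.129% of the 12424 genes tested. DESeq2 and limma also called 0, beside 42 and 22 of all genes. In edgeR 0 members had an unadjusted p under 0.05, beside 5.66% of all genes. The log2 fold changes were positive for 8 of 10 members and for 54% of all genes. They ran from 0.0095 for Nfkbiz to 0.36 for Bcl3 among these 8, and were -0.03 for Tnfaip3 and -0.09 for Birc3. The median of the members was 0.23, beside 0.02 over all genes tested. Nfkbia was at 3560, 3616, 6479, 3450 and 4941 CPM in the topical cKO mice. In the topical controls it was at 1952, 5571, 2359, 3434 and 5425 CPM. The groups overlapped: 3 of the 5 controls lay below every cKO mouse, and 1 cKO mouse lay above every control. The fold was 1.18 (95% interval 0.689 to 2.01). The interval was narrowest for Rela, at 1.21-fold (0.947 to 1.56), and for Relb, at 1.09-fold (0.838 to 1.41). With 5 mice per group, these intervals leave room for differences within their bounds.

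After injection, the comparison of systemic cKO with systemic control also called 0 of 10 members, beside 1.89% of all genes tested. DESeq2 and limma called 0 as well, beside 559 and 348 of all genes. In edgeR 1 member, Rela, had an unadjusted p under 0.05, beside 15.3% of all genes. The median log2 fold change was -0.03 over the members and -0.0045 over all genes. Rela was at 103, 65.9, 60.5, 75.4 and 74.3 CPM in the systemic cKO mice. In the systemic controls it was at 87.9, 92.6, 109, 119 and 84.2 CPM. Of the cKO mice, 4 lay below every control, and systemic cKO 2 lay within their range. The log2 fold change of Rela was -0.38 (SE 0.17), a fold of 0.768 (95% interval 0.599 to 0.985), with an adjusted p of 0.292. Without systemic cKO 2, the cKO library with satellite-like transcripts, it was -0.51 with an adjusted p of 0.0790, and with the satellite-like transcripts as a covariate it was -0.20 with an adjusted p of 0.9997. Tnfaip3 had the widest interval among the feedback genes of high level, with a fold of 1.47 (0.796 to 2.70) and an adjusted p of 0.591. Its means were 1107 ± 363 CPM in systemic cKO and 755 ± 471 CPM in systemic control (SD, n = 5 each), and the groups overlapped. Relb was at 1.22-fold (0.939 to 1.58), Birc3 at 1.17-fold (0.894 to 1.54), and Nfkbia at 1.02-fold (0.598 to 1.74).

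Whether the genotype difference itself depended on the route was tested as an interaction, the systemic log2 fold change minus the topical one. Again 0 of 10 members were called, beside 0.25% of all genes. DESeq2 and limma called 0 members, beside 321 and 218 of all genes. Rela had the smallest p, with an interaction of -0.66 (SE 0.24, unadjusted p 0.0132, adjusted p 0.214). Its mean was higher in cKO than in control after topical tamoxifen (88.2 ± 16.2 against 72.6 ± 12.6 CPM) and lower after injection (75.8 ± 16.5 against 98.7 ± 15 CPM; SD, n = 5 each). Unadjusted p-values under 0.05 were found for 14% of all genes in this contrast, and for 1 of the 10 members. The interaction was 0.58 for Tnfaip3 (95% interval -0.66 to 1.82), -0.58 for Bcl3 (-1.89 to 0.73), -0.40 for Nfkb1 and -0.39 for Nfkb2, each with an adjusted p over 0.59 by edgeR. These intervals leave room for differences of more than a log2 unit in Tnfaip3 and Bcl3.

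**Figure D4:**
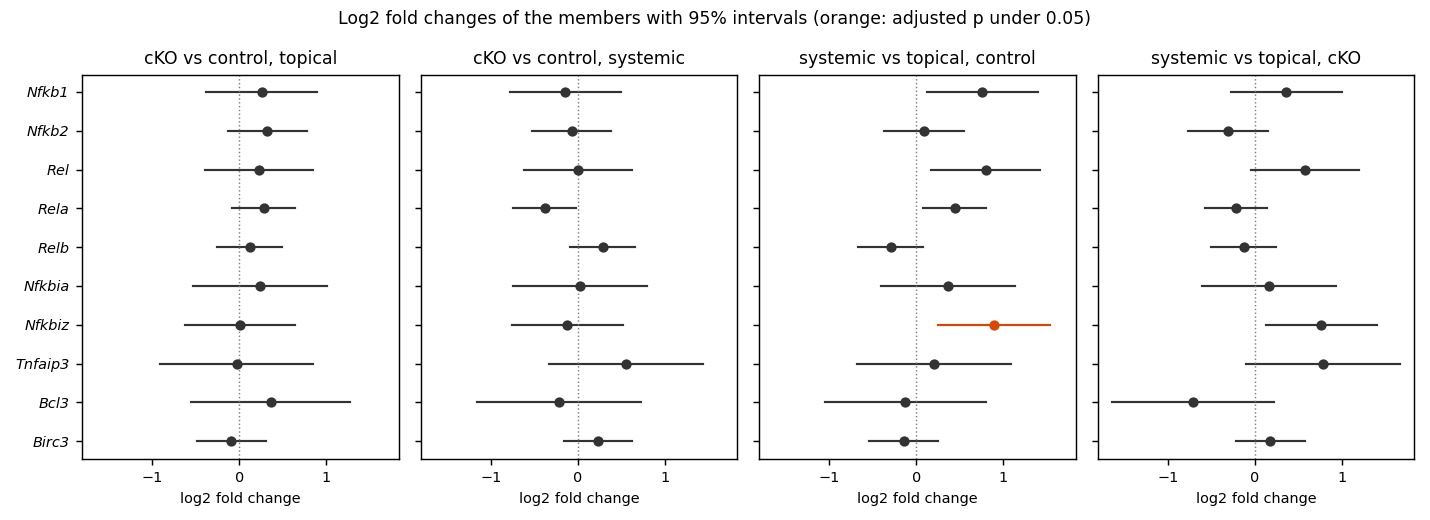
Log2 fold changes (points) with 95% intervals (lines) of the 10 members in the 4 comparisons of 5 against 5 mice, from the fit of all 20 libraries; the dotted line marks no difference. Nfkbiz between systemic and topical controls, at 0.89, is the single value in orange, which marks an adjusted p under 0.05.

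Between routes, 1 of 10 members was called in controls, beside 18.3% of all genes tested in either direction and 10.2% called as higher in the systemic group. The member was Nfkbiz. It was at 449, 465, 936, 749.8 and 260 CPM in the systemic controls. Topical controls had 174, 453, 243, 277 and 391.5 CPM. Of the systemic controls, 3 lay above every topical control, and systemic control 6 lay below the topical median. Nfkbiz rose by 0.89 on the log2 scale (SE 0.31, 95% interval 0.25 to 1.53), a fold of 1.86, with an adjusted p of 0.0469 by edgeR. The call held in 3 of 10 fits that left out 1 library. The adjusted p was 0.119 without topical control 1, 0.0980 without 5, 0.0873 without 6 and 0.0533 without 7. Likewise it was 0.0599 without systemic control 3, 0.160 without 4 and 0.0989 without 5, and over all 10 fits the log2 fold change ranged from 0.64 to 1.08. With the summed satellite-like transcripts as a covariate it was 1.01 with an adjusted p of 0.319. In controls this covariate splits the libraries as the route does, so a call lost under it is not a test of the gene.

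Of the other members in this comparison, Rel, Nfkb1 and Rela had unadjusted p-values under 0.05, as did 32.9% of all genes. Rel, the subunit best known from lymphocytes, was at 31.0, 57.3, 55.7, 54.5 and 44.5 CPM in systemic controls. Topical controls were at 22, 30.0, 31.3, 27.4 and 29.1 CPM. All but systemic control 1 lay above every topical control. The log2 fold change was 0.80 (SE 0.30) with an adjusted p of 0.0684, and it passed at 0.0396 when systemic control 1 was left out. In the other 9 fits without 1 library the adjusted p was 0.0865 to 0.146, and with the satellite-like covariate the value was 0.50 (adjusted p 0.6996). For Nfkb1 the systemic controls were at 20.3, 42.7, 31.5, 26.5 and 39.8 CPM, against 14.2, 16.9, 18.2, 26.8 and 19.2 CPM, and the difference was 0.76 on the log2 scale (SE 0.31, adjusted p 0.0887). Rela was at 1.36-fold (95% interval 1.06 to 1.74, adjusted p 0.0782), a log2 fold change of 0.44. With the satellite-like covariate Nfkb1 was at 0.25 (adjusted p 0.879) and Rela at 0.19 (adjusted p 0.794) on the log2 scale. DESeq2 called 2 members, beside 2775 of the 12424 genes. Limma with quality weights called 4, namely Nfkbiz, Rel, Nfkb1 and Rela, beside 3475 of the 12424. Nfkbia (0.37), Tnfaip3 (0.20), Nfkb2 (0.09), Bcl3 (-0.13), Birc3 (-0.15) and Relb (-0.29) had log2 fold changes with intervals that include 0. The median over the members was 0.29, and over all genes it was 0.00081.

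In cKO mice, 0 of 10 members were called between routes by edgeR, beside 9.22% of all genes. DESeq2 called 0, beside 1543 of the 12424 genes, and limma called 1 (Rel), beside 1478. In edgeR 1 member, Nfkbiz, had an unadjusted p under 0.05, beside 23.1% of all genes. Nfkbiz was at 449, 440, 544, 449 and 752 CPM in systemic cKO. In topical cKO it was at 240, 255, 449, 289 and 315 CPM. The highest topical value lay within the systemic range, and the other topical values lay below it. Its log2 fold change was 0.77 (SE 0.31, 95% interval 0.13 to 1.40, adjusted p 0.130), close to the 0.89 in controls, and the interaction was -0.13 (-1.03 to 0.77). Tnfaip3 had 790, 1125, 1167, 784 and 1671 CPM in systemic cKO against 411, 452, 1105, 369 and 878 CPM in topical cKO. All 5 systemic mice were above the topical median, but the groups overlapped. The fold was 1.72 (0.933 to 3.18) with an adjusted p of 0.282. Rel was at 1.49-fold (0.967 to 2.29), and Bcl3 at 0.613-fold (0.321 to 1.17). In none of the 4 comparisons were the groups fully apart for any member, whereas 1.4% (topical genotype), 1.94% (systemic genotype), 13.8% (route in controls) and 7.39% (route in cKO) of all genes had groups that did not overlap.

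A list of 12 genes that respond to cell dissociation, mostly immediate-early genes that keratinocytes also express, was in part higher after injection. In controls 5 of the 12 rose and 0 fell between routes, beside 10.2% and 8.16% of all genes, and in cKO mice 5 rose and 0 fell, beside 5.19% and 4.02%. Jun had a log2 fold change of -0.07 (adjusted p 0.895) and Fosb of -0.79 (adjusted p 0.0749) in controls, and in cKO Fosb rose by 1.14 (adjusted p 0.0214). Scaled without TMM factors, the 12 genes summed to between 26196 and 36098 CPM in topical libraries. In systemic libraries they summed to between 40670 and 62061 CPM, with no overlap. Fos, a subunit of the AP-1 transcription factor, rose by 0.83 on the log2 scale in controls (SE 0.27, adjusted p 0.0388 by edgeR). In cKO it rose by 0.92 (SE 0.28, adjusted p 0.0386). With TMM factors the Fos values of the routes overlapped. They reached 12874.5 CPM in topical and began at 11124 CPM in systemic controls, and at 11841 and 11518 CPM in cKO. The part of this response in the levels of Nfkbiz was not tested. Immune markers summed to at most 18.6 CPM in topical libraries and reached 40.0 CPM in systemic cKO, and their part was not tested either.

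The other genes of the pathway were read from 5 lists. In the topical genotype, systemic genotype and interaction contrasts 0 genes of any list were called. Of all genes, 0.129%, 1.89% and 0.25% were called there. Between routes in controls the kinases and adaptors, which pass the signal to the inhibitor, held the most calls. No test compared the lists. Of 29 measured members, 9 rose and 0 fell in systemic controls, beside 10.2% and 8.16% of all genes, and the median log2 fold change was 0.14. The smallest adjusted p-values were those of Card14, a keratinocyte scaffold of the pathway, of Ikbkb, the catalytic kinase of the inhibitor, and of Map3k14, the kinase of the non-canonical branch. Card14 rose from 12.8 ± 2.77 to 24.1 ± 4.07 CPM (log2 fold change 0.91, adjusted p 0.00233). Ikbkb rose from 28.8 ± 2.99 to 42.2 ± 4.46 CPM (0.55, adjusted p 0.00304) and Map3k14 from 2.60 ± 0.873 to 5.68 ± 1.73 CPM (1.11, adjusted p 0.00759; SD, n = 5 each, edgeR). Rnf31 and Sharpin, which build linear ubiquitin chains, and Ikbke, Traf5, Chuk and Birc2 also rose. Of these 9 calls, those of Chuk and Birc2 were lost when 1 of 4 libraries each was left out: topical controls 1 and 7 for Chuk, topical controls 3 and 6 for Birc2, and systemic controls 3 and 6 for both. Their highest adjusted p was then 0.0826 and 0.0957. With the satellite-like covariate 0 of the 9 were called, and without TMM factors 4 were. Under that covariate their log2 fold changes ran from 0.18 for Chuk to 1.05 for Map3k14. In controls it splits the libraries as the route does, so these lost calls are not a test of the list.

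In cKO mice 3 of the same 29 rose between routes and 0 fell, beside 5.19% and 4.02% of all genes. Without TMM factors 1 of these 3 was called. Card14 went from 9.89 ± 2.49 to 20.9 ± 4.54 CPM (log2 fold change 1.08, adjusted p 8.19e-04 by edgeR), and its call held in all 10 fits that left out 1 library and with the satellite-like covariate. Myd88, the adaptor of Toll-like and interleukin-1 receptors, rose by 0.63 (adjusted p 0.0184), and this was lost without topical cKO 5 or systemic cKO 5, with an adjusted p of up to 0.0562. Birc2, the close relative of Birc3, rose by 0.53 (adjusted p 0.0481), a call that held in 3 of the 10 fits, with an adjusted p of up to 0.121. It was lost without topical cKO 2, 4 or 5 and without systemic cKO 2, 5, 6 or 7.

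Other inhibitors and brakes did not share a direction. Of 21 measured, 1 rose and 2 fell in systemic controls, and 0 were called in cKO mice. The 14.3% called in controls is below the 18.3% of all genes. Tnip2, a partner of Tnfaip3, rose by 1.33 (adjusted p 7.01e-04), and Nkiras1, a small GTPase-like protein that binds the inhibitors, fell by 0.74 (adjusted p 0.00115). Rnf11, a subunit of the Tnfaip3 editing complex, fell by 0.79 (adjusted p 0.0348), a call that held in 3 of 10 fits without 1 library (topical controls 1, 3 and 7 left out) and reached 0.0924 in the others. Of 16 measured receptors, Il17ra, a chain of the interleukin-17 receptor, rose by 0.54 in systemic controls (adjusted p 0.0103 by edgeR). That is 6.25% of the receptors, below the 18.3% of all genes. Of the 13 ligands listed, 3 were measured above the filter, and 1 was called in controls. A list of 3 is too short to set beside the 18.3% of all genes. Tnf, which encodes tumor necrosis factor, fell by 1.79 in systemic controls (adjusted p 0.0276), from 6.47 ± 6.12 to 1.89 ± 0.801 CPM. That call held in 4 of 10 fits and was lost without topical control 3 or 7 or without systemic control 1, 3, 4 or 6, with an adjusted p of up to 0.119. With the satellite-like covariate the calls of these 5 genes in controls were lost. Tnip2 was at 0.84 (adjusted p 0.213), Nkiras1 at -0.59 (0.145), Rnf11 at -0.98 (0.215), Il17ra at 0.63 (0.129) and Tnf at -2.29 (0.194). Rnf11, Il17ra and Tnf were then farther from 0, and Tnip2 and Nkiras1 nearer to it. The covariate splits the control libraries as the route does, so these lost calls are not a test of the genes.

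Known targets outside the members were read in 28 genes. In controls 1 rose (Birc2) and 2 fell between routes, namely Tnf and Plau, which encodes the urokinase plasminogen activator. These 3 are 10.7% of the 28, below the 18.3% of all genes called there. Plau fell by 1.41 (adjusted p 3.02e-04), from 9.82 ± 1.74 to 3.73 ± 1.26 CPM, and remained called with the satellite-like covariate (adjusted p 0.0390). In cKO mice 2 targets rose, Bcl2l1 and Birc2, and 3 fell, which is 17.9% of the 28, beside 9.22% of all genes. Lcn2, an antimicrobial siderophore-binding protein, fell by 2.12 (adjusted p 0.00548), from 2.92 ± 1.45 to 0.672 ± 0.405 CPM. Cxcl1, a neutrophil chemokine, fell by 1.46 (adjusted p 0.0466), from 16.2 ± 5.58 to 6.02 ± 2.38 CPM, and Plau fell by 0.70 (adjusted p 0.0475). The survival gene Bcl2l1 rose by 0.56 (adjusted p 0.0304). The Lcn2 call held in all 10 fits without 1 library. Those of Cxcl1 and Plau held in 2 of 10 each, with an adjusted p of up to 0.135 and 0.133, and that of Bcl2l1 in 4 of 10, with up to 0.0912. Cxcl1 stayed called without topical cKO 7 or systemic cKO 7, and Plau without topical cKO 4 or systemic cKO 7. Bcl2l1 stayed called without topical cKO 3 or 7 or systemic cKO 2 or 4. The median log2 fold change of the targets was -0.28 in controls and -0.26 in cKO, beside 0.00081 and -0.01 over all genes. Of the 28 targets, 19 in controls and 18 in cKO had negative values. Over all genes the median near 0 sets about as many below 0 as above. Among the members, Nfkb1, Rel, Nfkbia, Nfkbiz and Tnfaip3 had positive log2 fold changes between routes in each genotype. Relb and Bcl3 had negative ones, and Nfkb2, Rela and Birc3 had mixed signs.

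After group means were removed, members formed sets that went up and down together from mouse to mouse. The values are Pearson's r of log2(CPM + 1) over 20 libraries, for 45 pairs of members. Their median was 0.51, 24 were over 0.5, 7 were over 0.8 and 2 were below 0. Over all pairs of tested genes the median was 0.00073, and 90% of pairs lay between -0.60 and 0.60. Nfkbia, Nfkbiz and Tnfaip3 were the tightest set. For Nfkbia and Nfkbiz r was 0.95 and Spearman's rho 0.88. For Nfkbiz with Tnfaip3 r was 0.89 and rho 0.81, and for Nfkbia with Tnfaip3 r was 0.87 and rho 0.81. Permuting within groups gave adjusted p-values of 2.2e-04, 2.2e-04 and 0.00135 for r and 0.0015, 0.0036 and 0.00829 for rho over the 45 pairs. Without the 2 mice farthest from the median of the first gene, r was 0.94, 0.90 and 0.84.

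A second set was Nfkb2, Bcl3 and Birc3. The r values were 0.89 for Nfkb2 and Bcl3 (rho 0.87), 0.88 for Bcl3 and Birc3 (rho 0.83) and 0.80 for Nfkb2 and Birc3 (rho 0.77). Their adjusted permutation p-values were 3.0e-04, 6.7e-04 and 0.00231 for r and 0.0015, 0.0015 and 0.00375 for rho, and without the 2 farthest mice r was 0.89, 0.85 and 0.79. The last set was Nfkb1 with Rel, with r 0.82 and rho 0.81 (adjusted permutation p 0.00231 and 0.0036), and 0.69 without the 2 farthest mice. Nfkb1 had r of -0.12 with Nfkbia, 0.02 with Nfkbiz and -0.14 with Tnfaip3. Rela had its highest r with Relb, at 0.61 (rho 0.60, adjusted permutation p 0.0283 and 0.0339, and 0.69 without the 2 farthest mice).

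**Figure D5:**
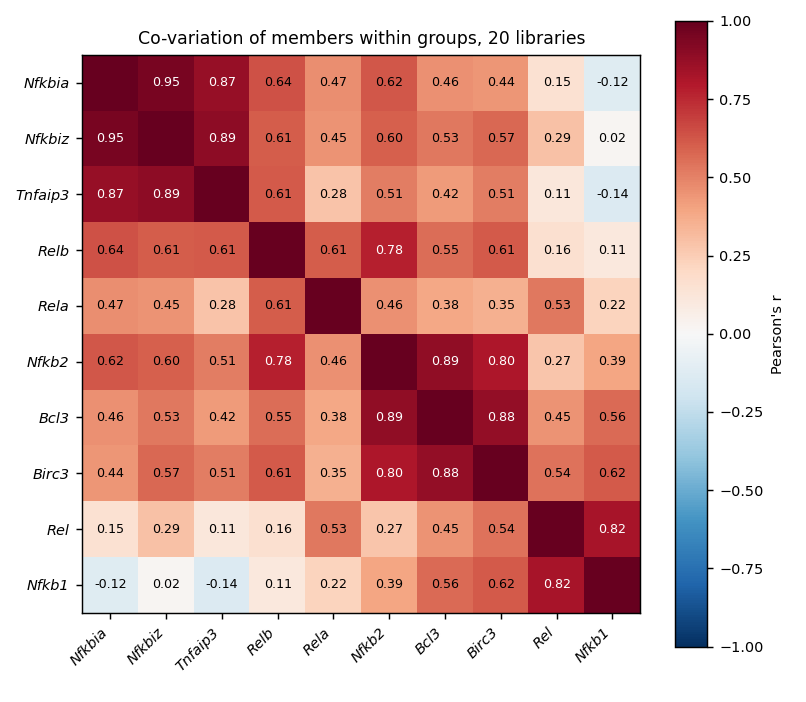
Pearson's r between members (colour and number) over the 20 libraries after group means were subtracted from log2(CPM + 1). Nfkbia, Nfkbiz and Tnfaip3 form 1 block with r of 0.87 to 0.95, Nfkb2, Bcl3 and Birc3 another, and Rel with Nfkb1 the last.

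These deviations also followed properties of the libraries, in 40 relations examined. The percent of counts from mitochondrial genes ranged from 1.87 to 7.49. Nfkb1 had r of 0.80 with it (rho 0.78, adjusted permutation p 0.0160 and 0.0260, and 0.74 without the 2 farthest mice). With the TMM factor, which ranged from 0.780 to 1.52, Nfkb1 had r of 0.68 (rho 0.74, adjusted permutation p 0.0208 and 0.0260, 0.69 without the 2 farthest). For Nfkbia the sign was the opposite, at -0.73 (rho -0.68, adjusted permutation p 0.0208 and 0.0571, -0.63 without the 2 farthest). The TMM factor is itself a divisor of these CPM values, so a negative r with it is in part built in. The remaining 37 relations had an adjusted p for r of 0.111 or more. Among them, the summed dissociation response had r of 0.49 with Nfkbia, 0.51 with Nfkbiz and 0.48 with Tnfaip3 (rho 0.47, 0.48 and 0.42, adjusted permutation p 0.111 for each r). The part of these properties in the sets above was not tested.

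Genes outside the list were ranked by their likeness to each member, as Pearson's r of log2(CPM + 1) over the 20 libraries, with the groups left in. Nfkb1 was most like Ankrd11 (r 0.96), a chromatin regulator, and Pi4k2a (0.96), a lipid kinase. Rel was most like Itpkc (0.94) and BC024978 (0.93). Nfkbiz was most like Cdkn2d (0.91), a cyclin-dependent kinase inhibitor, and Il4ra (0.90), a chain of the interleukin-4 receptor, and Nfkbia was most like Trex1 (0.89) and Atrip (0.87). Tnfaip3 was most like Myc (0.83) and Litaf (0.83). For Rela the closest were Slc39a13 (0.86) and Sipa1 (0.86), and for Nfkb2 they were Zfp703 (0.85) and Jund (0.80). Bcl3 was most like Irx2 (0.83) and Tmem189 (0.83), and Relb was most like Ch25h (0.78) and Ltb4r2 (0.77). For Birc3 they were Rasgef1b (0.81) and Malt1 (0.77), the paracaspase that works with Card14. Each is the highest of many values and is given as a description.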

How the data were processed

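The authors deposited 1 table of raw counts per gene and mouse, without normalization. Alignment and counting were done with STAR and featureCounts against GRCm38 (mm10), per the submitters' processing notes, and versions and strand settings are not given in the sources used here. Libraries were made by SmartSeq II from total RNA, per the labels, and no molecular identifiers are described. Each mouse was taken as a replicate.

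A single edgeR model (version 4.0.16, R 4.3.3) covered the 20 libraries, with TMM factors, filterByExpr (minimum count 10, minimum total 15), 1 coefficient per group and robust quasi-likelihood F tests, two-sided, with Benjamini-Hochberg adjustment over the 12424 genes and calls at 0.05. DESeq2 1.42.0 and limma 3.58.1 (voom) were run as alternatives. The fit was tested on simulated counts. Correlations use 100000 permutations within groups (Python 3.11.15) and were planned as a description without p-values, which were added. Exon lengths and positions come from GENCODE vM21 (GRCm38), with lengths for 12405 of the genes tested.

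The members and lists were chosen with earlier results of these data known. The genes named are all members, from each list the called genes with the smallest adjusted p (up to 3 per direction), the 2 genes most like each member, and genes that a marker statement needs. The other kinases and adaptors called were named after their values were seen. Marker lists not described in the report were fibroblasts (at most 32.0 CPM summed), melanocytes (35.4), endothelium (9.48), glucocorticoid-induced reference genes (4428 to 9736) and 3 genes that part the systemic libraries (27.2 to 242).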

Additional observations from a re-analysis of the deposited data

Results flagged for a closer look

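Among the 40 sets of 5 values checked (10 members in 4 groups), 1 held a mouse far from the others. Birc3 was at 10.9 CPM in topical cKO 2 and at 15.8 to 16.7 CPM in the 4 other topical cKO mice. Chance alone marks about 1 in 20 such sets, so 1 in 40 is no more than that.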

How the results depend on the processing

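The counts of 0 called members for genotype (topical and systemic) and for the interaction held under every alternative run. In controls, the count of 1 between routes was 2 by DESeq2, with genes of at least 5 CPM and with only the compared libraries (Nfkb1 and Rel, with Nfkbiz lost at an adjusted p of 0.0704), 4 by limma, 3 with the mitochondrial covariate, 0 with no filter, with the replicate block and with the satellite-like covariate, and 0 to 2 with 1 library left out. In cKO mice the count was 1 by limma and with the mitochondrial or sex covariate. The 9 kinases and adaptors called in controls were 0 with the satellite-like covariate and 4 without TMM (1 of 3 in cKO), and 1 to 3 in cKO with 1 library left out. Scaling without TMM, and the counts of the lists, were chosen after seeing the data; that scaling moved the median of all genes to -0.11 (systemic genotype) and -0.16 (interaction).

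Log2 fold changes of uncalled members changed sign in 67 fits of 1135, the cause of which was not tested. The values for systemic genotype were these. Rel was -0.0072 with genes of at least 5 CPM, -0.047 without TMM, -0.20 with the mitochondrial covariate, -0.00051 with only the compared libraries, -0.041 with the block and -0.061 with the sex covariate. Nfkb1 was 0.053 by limma and 0.27 with the satellite-like covariate, under which Bcl3 was 0.26, Nfkb2 0.11 and Nfkbia -0.089. Nfkbiz was 0.11 with the mitochondrial covariate, and Nfkbia -0.036 with the block. For topical genotype, Tnfaip3 was 0.041 by limma, 0.097 with the mitochondrial and 0.0055 with the satellite-like covariate. Nfkbia was -0.045, Nfkbiz -0.24 and Relb -0.021 with the block, and Nfkbiz -0.067 with the sex covariate. For route in controls, Bcl3 was 0.13 with the block and Nfkb2 -0.16 with the satellite-like covariate. For the interaction, Rel was 0.014 by limma and 0.067 with the satellite-like covariate, under which Bcl3 was 0.00057 and Nfkb1 0.10. Nfkbia was 0.0092 with the mitochondrial covariate and 0.0088 with the block, and Nfkbiz 0.069 with the block.

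With 1 library left out, ranges that crossed 0 were, for systemic genotype, Bcl3 -0.59 to 0.055, Nfkb1 -0.39 to 0.068, Nfkb2 -0.18 to 0.027, Nfkbia -0.18 to 0.29, Nfkbiz -0.30 to 0.13 and Rel -0.26 to 0.21. For topical genotype they were Birc3 -0.19 to 0.039, Nfkbiz -0.16 to 0.19 and Tnfaip3 -0.32 to 0.21. For route in controls they were Bcl3 -0.32 to 0.13, Nfkb2 -0.061 to 0.21 and Tnfaip3 -0.14 to 0.44, and for the interaction Nfkbia -0.42 to 0.053 and Nfkbiz -0.31 to 0.12.

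The numbers were not taken to pair mice. For mice of the same number r was 0.40 and 0.32 (topical 5 and 7) and 0.24 and 0.26 (systemic 5 and 6). It was -0.23 for topical 3 and -0.0064 for systemic 4. Mice of different numbers had r from -0.58 to 0.52, so these values do not decide whether the numbers pair mice. All members passed the filter, so the test planned for members below it was not run, and Bcl3 has no value with genes of at least 5 CPM.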
